A study of Rattus norvegicus with 8 samples.

Results

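The motile cilia and axoneme genes were taken by symbol from arrays of rat thoracic spinal cord. The rule took symbols that begin with Dnah, Dnai, Dnaaf, Rsph or Cfap and a number, or with Dnal, together with Foxj1 and Rfx3. It found 72 genes among the 18166 genes measured, each read by 1 probe set. Foxj1, the forkhead factor that switches on motile ciliogenesis, had no probe set assigned to it alone and was not analysed here. Dnah3, an inner arm chain whose probe set carries 2 gene entries, was left out too. The rats were Long Evans males, aged about 175 days and weighing 400 g. The injured group had a thoracic spinal cord injury (SCI, 4 arrays), and the control group had a laminectomy alone (sham, 4 arrays). Rats of both groups ate chow during 4 weeks of recovery and then a diet with 40% fat until the end of the study. The labels put the total at 8 weeks. Both groups had the same diets, so no comparison here concerns the diet. The labels give the sampled thoracic level in 2 ways and do not give the level of the lesion. They describe each array as a separate sample but tie none to a numbered animal, so the p-values measure the spread between these arrays. SCI 3, sham 1 and sham 2 stood apart from the other arrays on the second principal component over all genes (-17.18 to -12.62, against 4.53 to 14.79), so the main results are also given without them.

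A motile cilium is built on an axoneme of microtubule doublets that surround a central pair. Outer and inner dynein arms slide the doublets against each other, and radial spokes and the central apparatus set the beat. The arms hold heavy chains together with smaller chains, which differ between arms and include intermediate and light chains. Dynein arms are put together in the cytoplasm by assembly factors before they enter the cilium. In the spinal cord, motile cilia are carried by ependymal cells that line the central canal, a thin layer within the whole piece of tissue taken here. Rfx3 is a winged-helix factor that binds the X-box, a sequence element found before many ciliary genes.

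Most of these genes did not pass the test between injured and sham cord. Of the 72, 3 rose in SCI (Dnah11, Cfap44 and Dnali1) and 2 fell (Cfap20dc and Cfap36) at an adjusted p under 0.05 in limma, with the adjustment over all genes. That is 6.94% of the members, where 14.2% of all genes passed. By direction, 7.10% of all genes were called higher and 7.06% lower. The median SCI minus sham difference was 0.05 on the log2 scale over the members and -0.01 over all genes. Of the members, 46 (63.9%) had a positive difference and 26 a negative one, where 47.9% of all genes had a positive one. With each array centred on its median over all genes, the members' median difference moved to 0.0008. Centring shifts the difference of every gene by the same amount, so the gap between the members' median and that of all genes did not change. All 72 had a 95% interval of the difference that lay within 2-fold either way, and 59 had one within 1.5-fold. The intervals of the 67 members that did not pass reached down to -0.66 and up to 0.91. The median half-width of the interval was 0.275 among members and 0.275 among all genes.

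Signal was low for most of the family. The median of the member means was 3.66 on the log2 scale, against a median of 4.74 over all genes, and 16 of the 72 members lay above that median. Array signal is not an amount of RNA and differs between probe sets, and a dim member cannot be called absent from it. Calls were rarer among dim genes in general. Of all genes above the median level, 23.1% were called, and of those at or below it 5.20%. Among members, 2 of 16 above the median level were called, both lower, and 3 of 56 at or below it, all higher. Of the 56 dim members 42 had a positive and 14 a negative difference (median 0.11). Of the 16 above the median level 4 had a positive and 12 a negative one (median -0.095). The share of positive differences among all genes was not taken by level. On the scale of the plot of level against difference, most dim members lie near 0 and a few stand out.

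**Figure D1:**
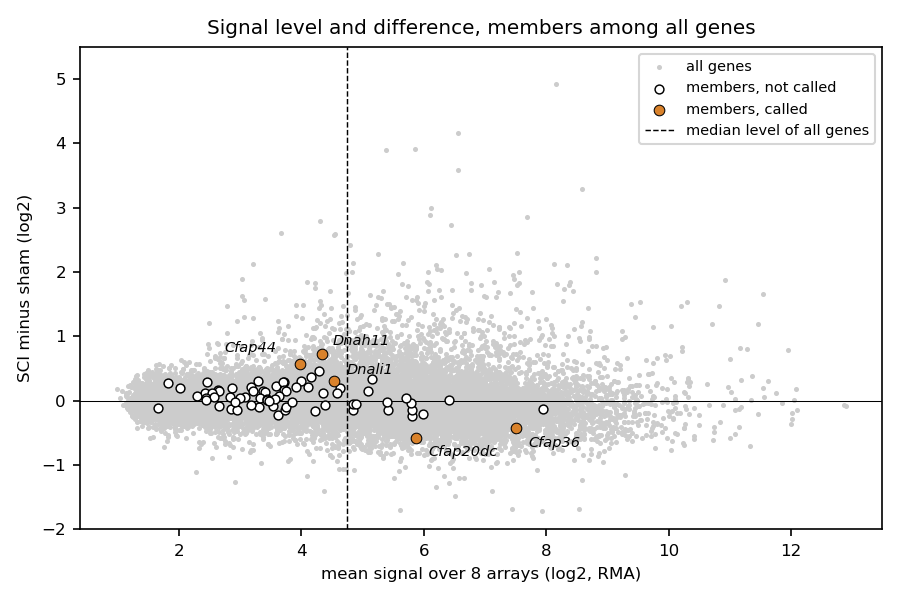
Mean signal over the 8 arrays (x axis, log2) against the SCI minus sham difference (y axis, log2) for all 18166 genes (grey), members that were not called (open) and the 5 called members (orange). The dashed line marks the median level of all genes, 4.74; Dnah11, Cfap44 and Dnali1 lie to its left and above 0, and Cfap20dc and Cfap36 to its right and below 0.

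The largest change was in Dnah11, an outer arm dynein heavy chain (probe set 17825183). It read 4.81, 4.91, 4.56 and 4.52 on the SCI arrays and 4.01, 3.99, 3.90 and 3.99 on the sham arrays (log2). The groups did not overlap, and the sham arrays lay within a narrow band. The mean was 4.70 ± 0.19 in SCI and 3.97 ± 0.05 in sham (SD, n = 4 each), a difference of 0.73 (SE 0.11, adjusted p = 0.0016, limma) or 1.66-fold. Dnah11 was the only member that stayed past the test under every alternative in which it could be fitted, with adjusted p of 0.0010 to 0.030.

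Cfap44, part of the tether that holds an inner arm dynein to the doublet (probe set 17668926), also rose. It read 4.24, 4.42, 4.25 and 4.11 in SCI and 3.51, 3.88, 3.46 and 3.93 in sham. The lowest SCI array stayed above the highest sham array, although sham arrays were spread over a wider range. The difference was 0.56 (SE 0.13, adjusted p = 0.017, limma), and the adjusted p was 0.054 without SCI 2. Its partner in the tether, Cfap43, had a difference of -0.09 (SE 0.10, adjusted p = 0.62).

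Dnali1, a light intermediate chain of inner arm dynein (probe set 17810482), showed a smaller rise. It read 4.69, 4.70, 4.71 and 4.65 in SCI and 4.40, 4.49, 4.40 and 4.24 in sham. The SCI arrays were tightly grouped and all lay above the sham arrays. The difference was 0.31 (SE 0.09, adjusted p = 0.044, limma). The call survived the removal of sham 2 and was lost when any other array was removed (adjusted p of 0.061 to 0.12) and when the arrays were centred on their medians (0.086).

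Cfap36 and Cfap20dc fell. Cfap36 (probe set 17696726) encodes a protein known to bind the GTPase Arl3, which acts in the transport of lipid-modified proteins into cilia. It read 7.19, 7.11, 7.37 and 7.47 in SCI and 7.64, 7.69, 7.63 and 7.88 in sham. The highest SCI array lay below the lowest sham array. The difference was -0.43 (SE 0.11, adjusted p = 0.026, limma), and removal of either SCI 1, SCI 2, sham 2 or sham 4 ended the call (adjusted p between 0.053 and 0.079).

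Cfap20dc, named for a domain shared with Cfap20 (probe set 17697593), had the largest fall. It read 5.64, 5.32, 5.48 and 5.91 in SCI and 6.23, 6.33, 6.18 and 5.93 in sham. The groups did not overlap, but SCI 4 and sham 4 were almost level. The difference was -0.58 (SE 0.14, adjusted p = 0.019, limma), and the call was lost without SCI 2, SCI 3 or sham 2 (0.052 to 0.058). Cfap20 itself, a lattice protein of the inner junction between doublet tubules, had a difference of 0.00 (SE 0.10).

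**Figure D2:**
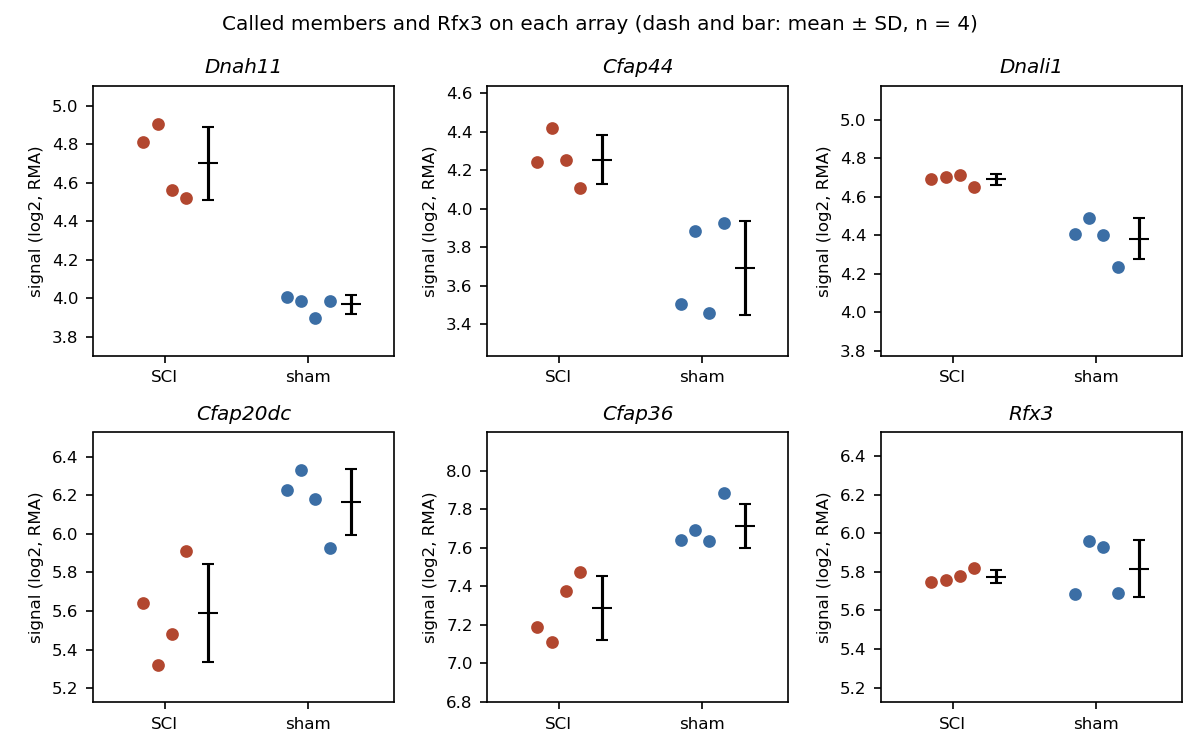
Signal (y axis, log2) of the 5 called members and of Rfx3 on each of the 4 SCI arrays (red, left) and the 4 sham arrays (blue, right), with the mean and SD beside the points; all panels have the same span. Dnah11, Cfap44 and Dnali1 lie higher in SCI, Cfap20dc and Cfap36 lower, and the groups overlap for Rfx3.

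Without SCI 3, sham 1 and sham 2, 1 member was called higher, Dnah11 (0.80, adjusted p = 0.030), and 0 lower. The share of all genes called without these arrays is not given. The adjusted p was then 0.12 for Cfap44, 0.13 for Dnali1, 0.12 for Cfap36 and 0.24 for Cfap20dc, with differences of 0.56, 0.37, -0.50 and -0.43. At an unadjusted p under 0.05 the members counted 8 with all arrays, 11.1% of them, against 26.7% of all genes. Besides the 5 called, these were Cfap300, Cfap161 and Cfap410. Shares by unadjusted p and by overlap were not taken among genes of like level. Most members (56 of 72) lie at or below the median level. In 6 members the groups did not overlap, 8.33% of the family, against 20.3% of all genes. Of these members 4 were higher and 2 lower, where 9.36% of all genes were higher without overlap and 10.9% lower. The sixth was Cfap300, a dynein assembly gene whose values, picked out after they were seen, were 5.23 to 5.46 in SCI and 4.81 to 5.15 in sham (difference 0.33, SE 0.10, adjusted p = 0.059). It passed without sham 1 (adjusted p = 0.018).

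Among the heavy chains, which hold the motor domain, Dnah11 was the only member called. The other outer arm chains were Dnah5 (-0.05, SE 0.09), Dnah9 (0.12, SE 0.11), Dnah8 (0.15, SE 0.10) and Dnah17 (-0.08, SE 0.12), and none passed. Dnah5 and Dnah9 are the usual outer arm chains of multiciliated cells beside Dnah11, whereas Dnah8 and Dnah17 are known from sperm tails. Dnah5 read 4.81, 4.94, 4.70 and 4.83 in SCI and 4.88, 4.84, 4.82 and 4.93 in sham. Dnah9 read 4.55, 4.50, 4.76 and 4.72 in SCI and 4.70, 4.50, 4.31 and 4.57 in sham. For both genes the groups overlapped. The interval of Dnah5 ran from -0.25 to 0.15, and the interval of Dnah11 from 0.49 to 0.97. The 4 inner arm heavy chains, Dnah1, Dnah2, Dnah6 and Dnah7, had differences of -0.06 to 0.06, and none passed (adjusted p of 0.75 to 0.89). Dnah1 read 3.77, 3.51, 3.63 and 3.74 in SCI and 3.57, 3.69, 3.52 and 3.62 in sham. Dnah7 read 3.05, 3.24, 3.07 and 3.19 in SCI and 3.36, 3.05, 3.15 and 3.25 in sham. In both the groups overlapped over most of their range. Dnah17, the outer arm chain with the largest negative value, read 2.55, 2.56, 2.74 and 2.60 in SCI and 2.59, 2.99, 2.70 and 2.51 in sham, where sham 2 was the highest array.

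Intermediate chains, which anchor the arms to the doublet, gave 0 calls among 5. Dnai2, an outer arm chain, had the largest difference (0.29, SE 0.15, adjusted p = 0.24), with 2.45, 2.28, 2.96 and 2.77 in SCI and 2.41, 2.38, 2.14 and 2.35 in sham. SCI 2 lay among the sham arrays. Its outer arm partner Dnai1 had 0.21 (SE 0.12), and Dnai7 was the member with a negative value (-0.15, SE 0.09, adjusted p = 0.36). Dnai7 read 4.69, 4.75, 4.90 and 4.74 in SCI and 4.99, 4.79, 4.97 and 4.93 in sham, so that SCI 3 alone lay inside the sham range. Of the other light chains, Dnal1, of the outer arm, read 5.95, 5.70, 5.60 and 6.28 in SCI and 5.78, 6.12, 6.33 and 6.16 in sham. Its difference was -0.21 (SE 0.16, adjusted p = 0.47), and Dnal4 had -0.15 (SE 0.17, adjusted p = 0.65). The groups overlapped for both.

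Assembly factors, which fold dynein arms in the cytoplasm with chaperones, gave 0 calls among 10, and 5 had a positive and 5 a negative difference. Dnaaf2 had the largest positive value (0.31, SE 0.17, adjusted p = 0.28) and Dnaaf8 the largest negative one (-0.17, SE 0.15, adjusted p = 0.54). Dnaaf2 read 4.09, 4.31, 4.03 and 4.18 in SCI and 3.29, 3.98, 4.05 and 4.06 in sham, and sham 1 lay far below the rest. Dnaaf8 read 4.39, 4.16, 4.28 and 3.73 in SCI and 4.20, 4.16, 4.43 and 4.44 in sham, and SCI 4 was its lowest array. Dnaaf6 had the smallest p of these (0.27, SE 0.13, adjusted p = 0.21). It read 2.17, 1.79, 1.99 and 1.89 in SCI and 1.99, 1.64, 1.62 and 1.51 in sham, and the groups overlapped through sham 1. Dnaaf9, the member with the highest signal, read 7.87, 7.81, 7.91 and 7.96 in SCI and 7.97, 7.93, 8.07 and 8.10 in sham. Only SCI 4 reached into the sham range, and the difference was -0.13 (SE 0.09, adjusted p = 0.41).

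Radial spoke genes had small positive differences in 6 of 6, from 0.11 to 0.29, and none passed. Rsph3 took a negative value under 2 of 17 alternatives and Rsph6a under 1. Rsph9, a spoke head gene, had the largest difference (0.29, SE 0.18, adjusted p = 0.36), reading 3.61, 3.46, 4.23 and 4.06 in SCI and 3.62, 3.78, 3.59 and 3.21 in sham. SCI 3 and SCI 4 lay above the sham range. Rsph1, also of the spoke head, had the smallest p (0.19, SE 0.10, adjusted p = 0.24). It read 3.09, 2.93, 2.85 and 2.98 in SCI and 2.86, 2.73, 2.66 and 2.83 in sham, and SCI 3 alone lay within the sham range.

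The Cfap genes, named as cilia and flagella associated proteins, made up 38 of the members, with 1 called higher and 2 lower. Of 14 that encode proteins inside the doublet lumen or at its inner junction, 0 were called and 11 had a positive difference (median 0.10). The largest was in Cfap45, picked out after its value was seen, with 4.67, 4.77, 3.84 and 4.78 in SCI and 3.83, 4.24, 3.88 and 4.30 in sham. SCI 3 lay at the level of the lowest sham arrays, and the difference was 0.45 (SE 0.21, adjusted p = 0.20). Without SCI 3 it was 0.68 (adjusted p = 0.013). The 4 central apparatus genes, Cfap46, Cfap47, Cfap65 and Cfap74, had differences of 0.01 to 0.28, and none passed. Cfap410 and Cfap418, known from photoreceptor disease, had -0.24 (SE 0.10, adjusted p = 0.16) and -0.15 (SE 0.10, adjusted p = 0.40).

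**Figure D3:**
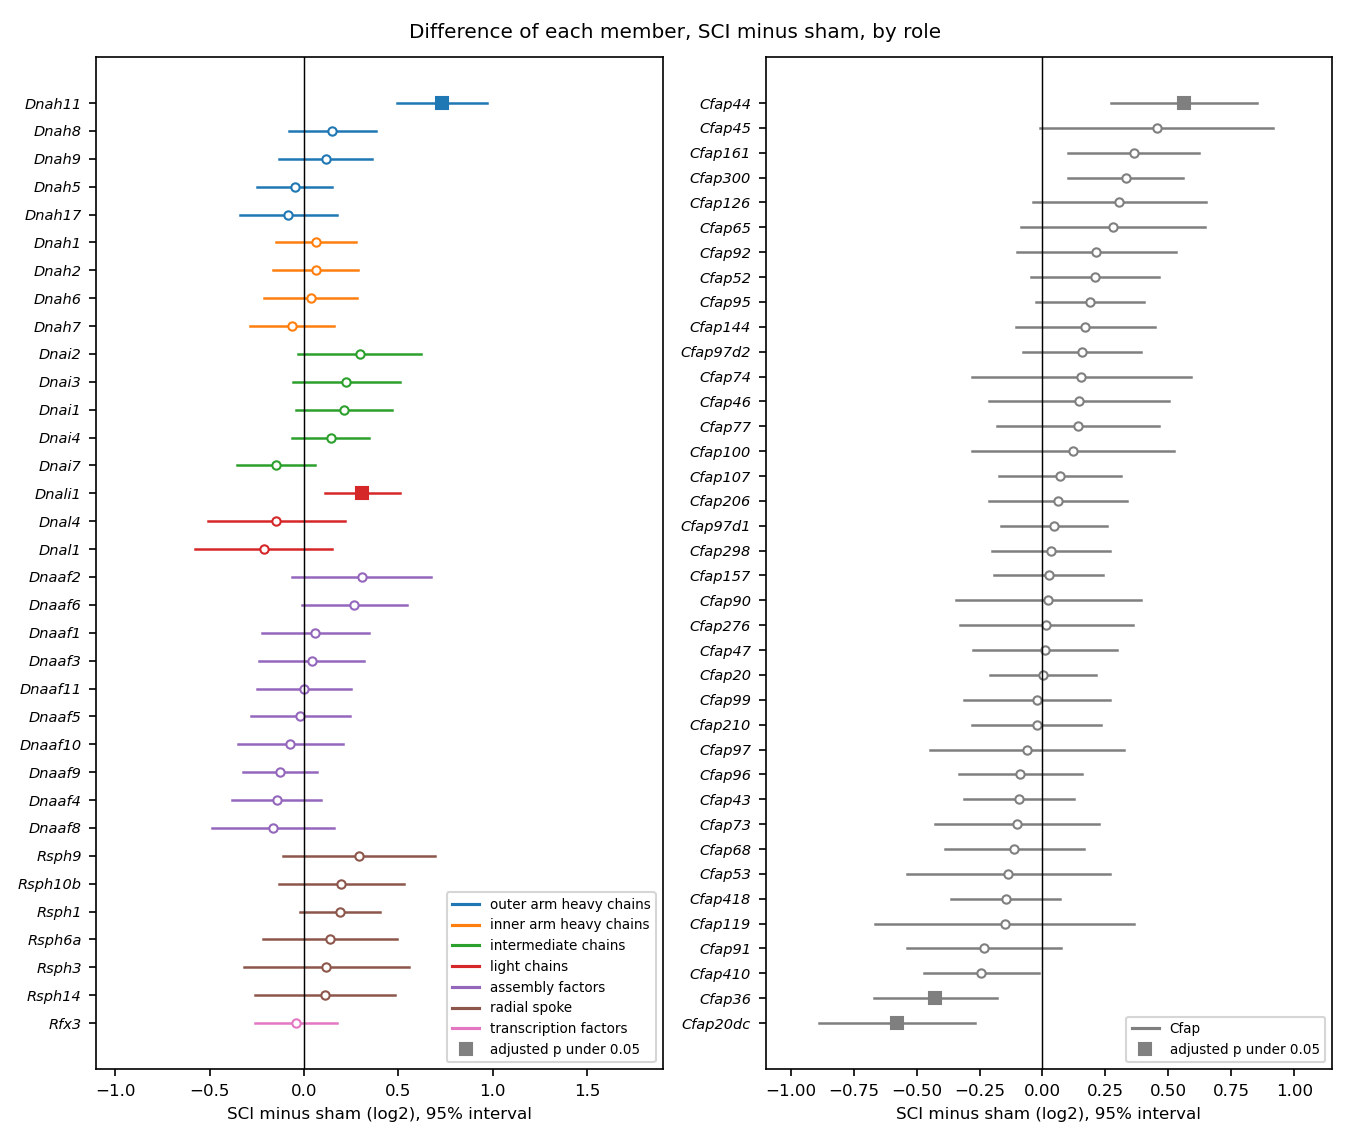
SCI minus sham difference (x axis, log2) of each of the 72 members with its 95% interval, grouped by role in the left panel and with the Cfap genes in the right panel. Filled squares are the 5 called members; every interval lies between -1 and 1.

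Rfx3, the transcription factor measured here (probe set 17641381), was level between the groups. It read 5.75, 5.76, 5.78 and 5.82 in SCI and 5.69, 5.96, 5.93 and 5.69 in sham. The SCI arrays lay inside the sham range, and the difference was -0.04 (SE 0.10, 95% interval -0.26 to 0.18, adjusted p = 0.85). Of 20 tested regulators of ciliogenesis outside the rule, among them relatives of Rfx3, the multiciliogenesis gene Mcidas and centriole genes, 0 were called at an adjusted p under 0.05 in limma, and 4 had an unadjusted p under 0.05. The smallest p was that of Rfx4 (0.31, SE 0.10, adjusted p = 0.071), which passed with array weights (0.047), with a trended and robust prior (0.032) and among genes above the median level (0.022).

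Promoters from RefSeq (build GRCr8, 250 bases before to 50 after a gene's start) were available for 61 of the members. The RFX half-site GTTGCC, searched on both strands, was present for 22 of these 61 genes, 36.1%, against 13.1% of all genes of the table (12.2% of all promoters). The X-box palindrome, GTTNCC followed after any pair of bases by its reverse complement GGNAAC, reads the same on both strands and can hold the half-site. It was present for 5 members, 8.2%, against 0.49% of all genes. The forkhead letters TGTTTAC, on both strands, were present for 3 members, 4.92%, against 4.13%. A match describes letters only. Of the called members, 4 of 5 held the half-site, and of the others with a promoter 18 of 56. No test was made of either set. The 4 were Dnah11, Cfap44, Cfap20dc and Cfap36, while Dnali1 held the forkhead letters and no half-site. The stretches below show sites before the gene's start, in capitals, first for called members, then for Rfx3, then for palindromes of members that were not called. The half-site of Cfap36 and the palindrome of Cfap96, which was not called, do not lie wholly before the start and are not printed.
Dnah11, chr6:145213734-145213799, minus strand: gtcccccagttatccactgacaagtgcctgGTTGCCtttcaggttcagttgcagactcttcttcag
Cfap44, chr11:69789906-69789944, minus strand: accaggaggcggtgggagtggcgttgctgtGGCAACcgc
Dnali1, chr5:142612119-142612185, minus strand: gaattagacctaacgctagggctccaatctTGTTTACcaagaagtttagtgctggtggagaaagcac
Cfap20dc, chr15:18661354-18661427, plus strand: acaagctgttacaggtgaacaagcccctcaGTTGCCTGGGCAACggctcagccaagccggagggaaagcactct
Rfx3, chr1:235122505-235122570, minus strand: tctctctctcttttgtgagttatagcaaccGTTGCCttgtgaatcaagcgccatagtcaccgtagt
Dnaaf2, chr6:93406368-93406441, minus strand: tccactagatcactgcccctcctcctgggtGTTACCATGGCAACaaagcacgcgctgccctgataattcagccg
Cfap298, chr11:43677570-43677632, minus strand: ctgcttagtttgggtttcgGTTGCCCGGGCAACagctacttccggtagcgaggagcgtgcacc
Dnaaf6, chrX:108512923-108512996, plus strand: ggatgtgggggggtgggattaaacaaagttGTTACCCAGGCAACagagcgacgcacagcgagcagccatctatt
The palindromes of Cfap20dc, which fell, and of Dnaaf2, Cfap298 and Dnaaf6, which did not pass, stand side by side here. Cfap298, a dynein assembly gene, had a difference of 0.03 (SE 0.11). In Cfap44 the half-site ends 3 bases before the start, and in Dnah11 it ends 92 bases before it.

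Other genes of motile cilia, listed under names outside the rule, were read from lists. Over 4 lists (regulators, docking and nexin link, central pair and spokes, and other axoneme genes), 114 genes were tested, of which 4 were higher and 1 lower, with a median difference of 0.03. That is 4.39% in all, below the 14.2% of all genes. Only 28 of the 114 lie above the median level, and 5.20% of all genes at or below it were called. Among 25 genes of dynein docking, the nexin link and assembly, 0 were called and 2 had an unadjusted p under 0.05. Ttc12 had the smallest p of them (0.36, adjusted p = 0.091), and passed without sham 3 (0.043). Among 17 genes listed under central pair and spokes 0 were called and 1 had an unadjusted p under 0.05. This was the sperm and ciliary gene Enkur (0.34, adjusted p = 0.059, and 0.046 without sham 4), whose place in that structure rests on the list alone.

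The 5 calls were among 52 axoneme microtubule and other ciliary genes. Ubxn10, an adaptor of the ATPase VCP at cilia, read 5.62, 5.48, 5.33 and 5.51 in SCI and 4.60, 4.24, 4.62 and 4.46 in sham, a 2.01-fold rise (1.00, SE 0.11, adjusted p = 3.2e-04, limma). Cdhr4, a cadherin-related gene found in ciliated epithelium, read 5.66, 6.02, 5.61 and 5.81 in SCI and 4.70, 4.96, 4.78 and 4.81 in sham, a 1.95-fold rise (0.96, SE 0.11, adjusted p = 3.9e-04). Each gene's SCI arrays all lay at least 0.6 above its highest sham array, and both passed under every alternative run. Rgs22 (0.39, adjusted p = 0.042) and Dcdc2 (0.38, adjusted p = 0.047) were also higher. With single arrays removed, Rgs22 kept its call without SCI 3 or sham 3 and Dcdc2 without SCI 4, and each lost it in the other cases. Tppp3, a tubulin-binding gene of ciliated and myelinating cells, fell (-0.40, SE 0.09, adjusted p = 0.011).

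Transport genes, which serve all cilia, were read in the same way. Of 24 genes of intraflagellar transport, which carries building blocks along the axoneme, 0 were higher and 4 lower (median -0.15). That is 16.7% in all, against 14.2% of all genes, and 22 of the 24 lie above the median level, where 23.1% of all genes were called. These were the kinesin genes Kif3c (-0.53, SE 0.10), Kifap3 (-0.52, SE 0.10) and Kif3a (-0.48, SE 0.10), which also move cargo in axons, and Ift80 (-0.52, SE 0.10), with adjusted p of 0.0055 to 0.0096. Of 25 genes of the BBSome and transition zone 2 (8.0%) were lower, Arl3 (-0.50, SE 0.09, adjusted p = 0.0054) and the Joubert syndrome gene Ahi1 (-0.49, SE 0.11, adjusted p = 0.012). Arl3, the partner of Cfap36, read 6.42, 6.39, 6.28 and 6.45 in SCI and 6.79, 6.86, 6.87 and 7.02 in sham, without overlap. Of 20 genes of cytoplasmic dynein and dynactin, the retrograde motor of axons and other cells, 1 was higher and 7 lower, 40.0% in all (median -0.22), and all 20 lie above the median level. The leading members were Dynll2 (-0.58), Actr1b (-0.64), Actr1a (-0.47), Dync1i1 (-0.60) and Dync1li2 (-0.37), with adjusted p of 0.0060 to 0.017. The call of Dync1li2 was lost without SCI 1 or SCI 2 (0.051 and 0.050). Without SCI 3, sham 1 and sham 2 the calls over all 7 lists numbered 2 (Ubxn10 and Cdhr4), against 19 with all arrays.

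Markers of several other cell types differed between the groups in the same arrays. Of all genes 14.2% were called, and 23.1% of those above the median level, where nearly all of these markers lie. The shares called were 33.3% of astrocyte, 42.9% of Schwann cell and 16.7% of endothelial markers. All 12 neuron markers were lower in SCI, and their summed signal, on the linear scale, was 9058.5 to 10925.9 in SCI and 13216.7 to 14903 in sham. All 14 macrophage and microglia markers were higher, with a summed signal of 6478.1 to 8866.1 in SCI and 1541.9 to 1970 in sham. Of 11 oligodendrocyte and myelin markers 8 were lower (7002 to 8198.1 in SCI, 11168.1 to 11923.9 in sham). Fibroblast and meningeal markers were higher in 6 of 9 and lower in 0, with a summed signal of 1869.5 to 2658.8 in SCI and 1130.3 to 1740.3 in sham. Schwann cell markers were higher in 2 of 7 and lower in 1 (1679.5 to 2156.5 in SCI, 1158.1 to 1341 in sham). Astrocyte markers were higher in 2 of 9 and lower in 1 (11237.7 to 12268.5 in SCI, 10162 to 10397.5 in sham). These 3 sums were higher in SCI without overlap. A linear sum is led by its brightest genes, such as Gfap among astrocyte markers (mean log2 11.68 in SCI, 10.87 in sham). Among Schwann cell markers the brightest was Pmp22 (10.63 in SCI, 9.81 in sham). Over the astrocyte markers the median difference was 0.01, with 5 positive and 4 negative. It was 0.53 over the Schwann cell markers and 0.79 over the fibroblast and meningeal markers. Endothelial markers were higher in 1 of 6 and lower in 0, and their sums overlapped (447.6 to 486.5 in SCI, 427.6 to 582.1 in sham). The summed signal of the 72 members was 1695 to 1800.7 in SCI and 1750.5 to 1833.6 in sham, and these ranges overlapped. The brightest members, Dnaaf9 and Cfap36, weigh most in that sum, so it says little of the dim ones. In whole tissue, fewer cells of a type and less RNA per cell cannot be told apart. The part of these markers in the falls of Cfap36, Cfap20dc and the transport genes, and in the rises of Dnah11, Cfap44 and Dnali1, was not tested.

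Markers of ependymal cells outside the axoneme were read beside the axoneme genes. Of 22 tested, 8 were higher and 0 lower, 36.4% in all against 14.2% of all genes, with a median of 0.11. Above the median level, where 15 of the 22 lie, 23.1% of all genes were called. The intermediate filament Vim rose 2.28-fold (1.19, SE 0.11, adjusted p = 1.2e-04), the surface glycoprotein Cd24 by 0.66, the adhesion gene Vcam1 by 0.65, the connexin Gja1 by 0.59 and the calmodulin-like Calml4 by 0.78 (adjusted p of 0.0027 to 0.0053). Several of these are made by astrocytes, vessels or leukocytes too, and 3 of the 23 listed also stand in the astrocyte list. Of the 22, 8 had a negative difference, and none of these passed. Among them the planar polarity gene Celsr2 (-0.41, SE 0.13, adjusted p = 0.060) and the calcium-binding S100b (-0.14, SE 0.09, adjusted p = 0.36) lay lower in SCI without overlap. Ankmy2 had -0.28, Vangl2 -0.23 and Prom1 -0.22, with overlap. The summed signal of the list was 9732.4 to 9857.8 in SCI and 7617.4 to 7997.9 in sham, and Vim made up 1410.9 of the 1925.2 by which the means differed. Without Vim, a sum chosen after seeing the data, it was 7062 to 7579.3 in SCI and 6686.1 to 6804.5 in sham, still without overlap. Bright genes weigh most in this sum, among them Aqp4, Gja1 and S100b, which also stand in the astrocyte list. Aqp4 (0.20, SE 0.10, adjusted p = 0.25) and Gja1 were higher and S100b lower. The sum without these shared genes was not taken. With Foxj1 not analysed here, the label ependymal rests on shared markers, and the members are described here as axoneme genes. Sperm and testis markers, whose tails share dynein genes with cilia, had a summed signal of 77.7 to 90.3 in SCI and 74.7 to 101.2 in sham, and 1 of 12 was called (Tnp1, 0.38, adjusted p = 0.036), with a sham mean of 2.33. RMA values have no 0, so no marker can be said to be at 0.

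**Figure D4:**
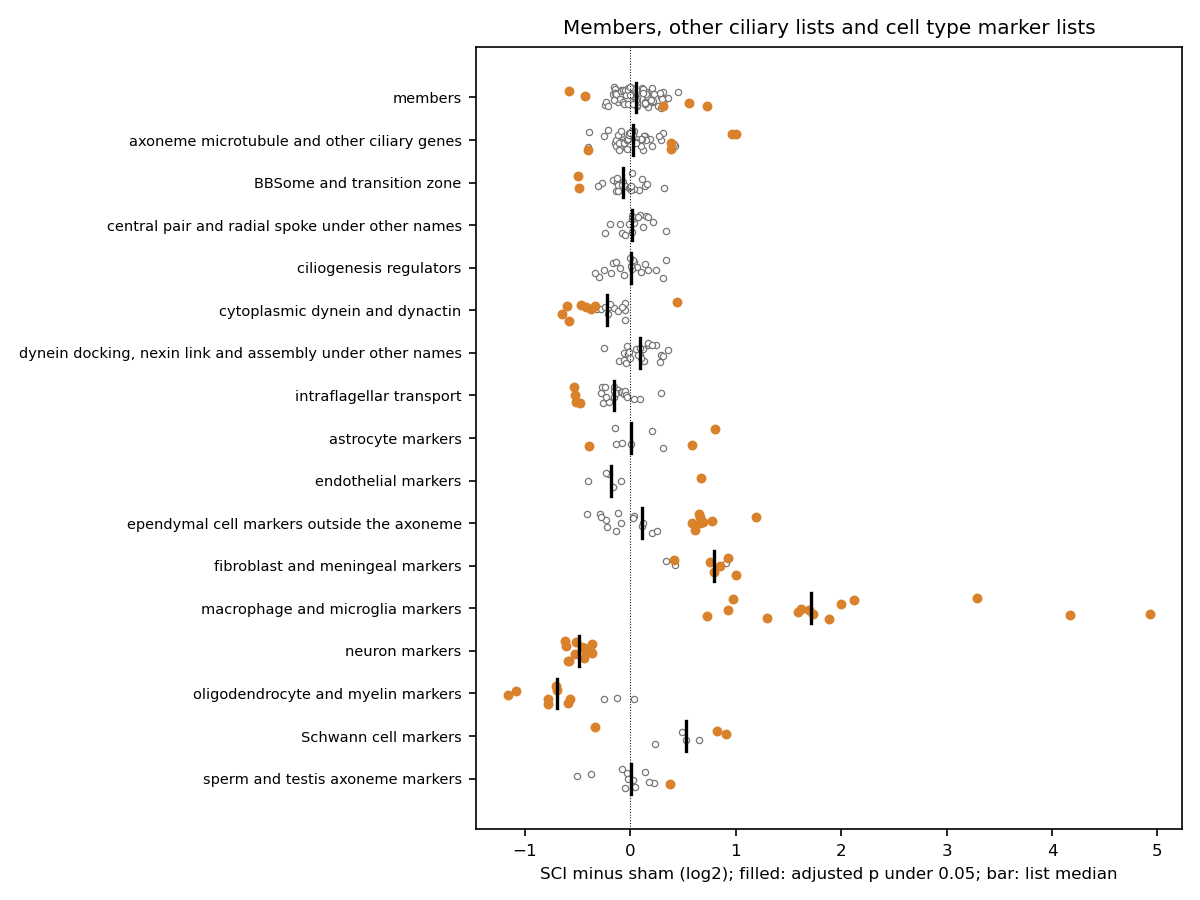
SCI minus sham difference (x axis, log2) of every tested gene of the members, of 7 lists of other ciliary or dynein genes and of 9 lists of cell type markers (filled, called; open, not called; bar, list median). The members lie around 0 (median 0.05), neuron markers below 0 (median -0.48) and macrophage and microglia markers above it (median 1.72).

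The members were also set side by side within each array. The median over the 72 members was 3.65, 3.71, 3.68 and 3.64 on the SCI arrays and 3.56, 3.58, 3.54 and 3.74 on the sham arrays. SCI arrays lay between 3.64 and 3.71, and sham 4 lay above all of them. Within SCI, the array with the highest value of a member was SCI 4 in 22 members, SCI 2 in 20, SCI 3 in 18 and SCI 1 in 12. Within sham it was sham 1 in 23, sham 4 in 19, and sham 2 and sham 3 in 15 each. No array was the highest of its group for most members.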

How the data were processed

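The authors' deposited log2 values, 1 column per array for 36685 probe sets, came from RMA in Affymetrix Expression Console, per the submitters' processing notes, which give no version or setting here. RMA compresses differences of dim probe sets. The platform annotation gave 1 symbol to 18511 probe sets and several entries to 575, which were left out. For repeated symbols the probe set with the highest mean was kept (18166 genes). The test of SCI against sham was that of limma 3.58.1 under R 4.3.3 (lmFit, eBayes, no covariate, Benjamini-Hochberg over all genes, called at an adjusted p under 0.05), tested on simulated data first. Every adjusted p is from limma. The number of arrays, 4 per group, limits the precision. The members, gene lists and tests were chosen with earlier results of these data known. Named were Rfx3, called members and, per role, the smallest p, the largest rise and the largest fall, and per other list up to 5 called genes or the smallest p. Other members were named with their values known. Alternatives were the probe set rule, a filter on dim genes, centring, quantile normalization, the prior, array weights, the title number as covariate, left-out arrays and a 1.5-fold minimum.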

Additional observations from a re-analysis of the deposited data

Results flagged for a closer look

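Dnaaf2 read 3.29 on sham 1, far from the other sham arrays at 3.98 to 4.06. Its difference was 0.12 without sham 1 and 0.31 with all arrays, and it passed in neither case. Kif3a read 7.15 on sham 1, while the other sham arrays lay close together at 7.22 to 7.23. Of 82 groups of 4 arrays checked in this way, 2 were picked out, and chance picks out about 1 in 20. A probe set left out because it carries both Cfap141 and Ns5atp4 (17740213) was higher in SCI by 0.61 (SE 0.16, adjusted p = 0.026, limma), at 3.87 to 4.41 in SCI and 3.09 to 3.71 in sham. Its signal belongs to neither gene alone.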

How the results depend on the processing

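No paired analysis was possible because replicate numbers follow accession order and pair no samples. With a minimum change of 1.5-fold, 1 member was called higher, 0 lower and 4 genes of the ciliary and dynein lists were called. These lists hold the other ciliary genes together with those of cytoplasmic dynein and dynactin. Among genes above the median level, 1 member was higher (Cfap300), 3 members had groups that did not overlap and the median difference of the 16 members left was -0.095. With the title number as covariate, 0 members were lower and 10 genes of the ciliary and dynein lists were called. Without SCI 3, sham 1 and sham 2, 1 member was higher and 0 lower, and 22 had groups that did not overlap. Called then were 2 genes of the ciliary and dynein lists and 25 marker genes, against 55 marker genes with all arrays. Fewer arrays separate more easily without overlap. The shares over all genes are not given for the alternatives, so these counts do not set the members apart from other genes. The filter on dim genes takes out Dnah11, Cfap44 and Dnali1 by design, and a fold minimum can only remove calls. Title numbers ran from 4 to 8 in SCI and from 5 to 11 in sham, so that covariate goes partly with the group. For the remaining shifts the cause was not tested. Leaving out each array in turn gave 1 to 3 members higher, 0 to 2 lower and 7 to 13 without overlap. The median difference was then 0.04 to 0.08. Calls numbered 13 to 19 in the ciliary and dynein lists and 46 to 55 among marker genes. Of the 67 members not called, 64 were called under none of the alternative fits that held them, 17 for the 53 at or below the median level and 18 for the other 14; the exceptions were Cfap300, Cfap161 and Cfap45. Counting the probe set with 2 Dnah3 entries as a member, a setting chosen after seeing the data, gave 3 higher and 2 lower. Dim signal limits what can be said of most members.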
